A study of Mus musculus with 8 samples.

Results

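Mitochondrial fuel oxidation was represented by 49 genes chosen by name, of the carnitine shuttle, beta-oxidation, the pyruvate dehydrogenase kinases, pyruvate entry and the tricarboxylic acid (TCA) cycle. A gene was measured where a probe set of the array carried its symbol and no other, and its brightest such probe set stood for it. This held for 46 of the 49 genes, out of 12393 genes measured in the same way. Cpt1b was annotated only on a probe set shared with other genes, and Pdhx and Mpc2 were not analysed here. Messenger RNA was measured on 8 Affymetrix arrays, 4 from sXBP1 cells and 4 from GFP cells. The sXBP1 cells were mouse adipocytes given adenovirus that expressed sXBP1, the spliced product of Xbp1, a transcription factor of the endoplasmic reticulum stress response. The GFP cells were the same kind of adipocytes infected with an adenovirus carrying green fluorescent protein alone, so both groups had been exposed to virus. All were cultured F442A preadipocytes of Swiss background that had been differentiated, although the labels also name 3T3L1 as the line. Infection was at day 6 to 8 of differentiation and harvest 4 to 6 days later, given as ranges for both groups alike. Whether the replicates were grown as separate cultures is not stated, so every p-value refers to the scatter among these 8 samples, part or all of which may be technical.

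Mitochondria burn long-chain fatty acids after the carnitine shuttle has carried them across the inner membrane. Beta-oxidation then shortens them to acetyl-CoA in repeated rounds of dehydrogenation, hydration, dehydrogenation and thiolysis. Pyruvate enters through a carrier and is turned into acetyl-CoA by the pyruvate dehydrogenase complex, which the pyruvate dehydrogenase kinases switch off, or into oxaloacetate by pyruvate carboxylase. The TCA cycle oxidises acetyl-CoA and passes electrons to the respiratory chain. In white adipocytes some of these enzymes also serve fat storage, since citrate and glycerol phosphate made from their products feed triglyceride synthesis.

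All 46 genes were called present on all 8 arrays. In sXBP1 cells 32 of the 46 fell, 2 rose and 12 did not pass (limma, with an adjusted p under 0.05 over all tested probe sets as the threshold). The share that fell was 69.6%, against 14.4% of all 12393 genes and 22.6% of the 7203 genes called present on all 8 arrays. The share that rose was 4.35%, against 12.9% and 19.7% of the same gene sets. The 46 genes were brighter, with a median normalised signal of 2472, against 192 over all genes. The part of signal level in these shares was not tested. All 4 sXBP1 values lay below all 4 GFP values for 33 of the 46 genes, and for 1988 of all 12393 genes. They lay above all 4 GFP values for 2 of the 46, and for 1750 of all 12393. Groups without overlap, as described for single genes below, were therefore not rare among all genes, in either direction. Changes are sXBP1 minus GFP on the scale log2(signal + 16) and are given with their standard error. Their median was -0.37 over the 46 genes, -0.01 over all genes and -0.03 over the genes present on all 8 arrays, and the 46 changes ran from -1.44 to 0.38.

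**Figure D1:**
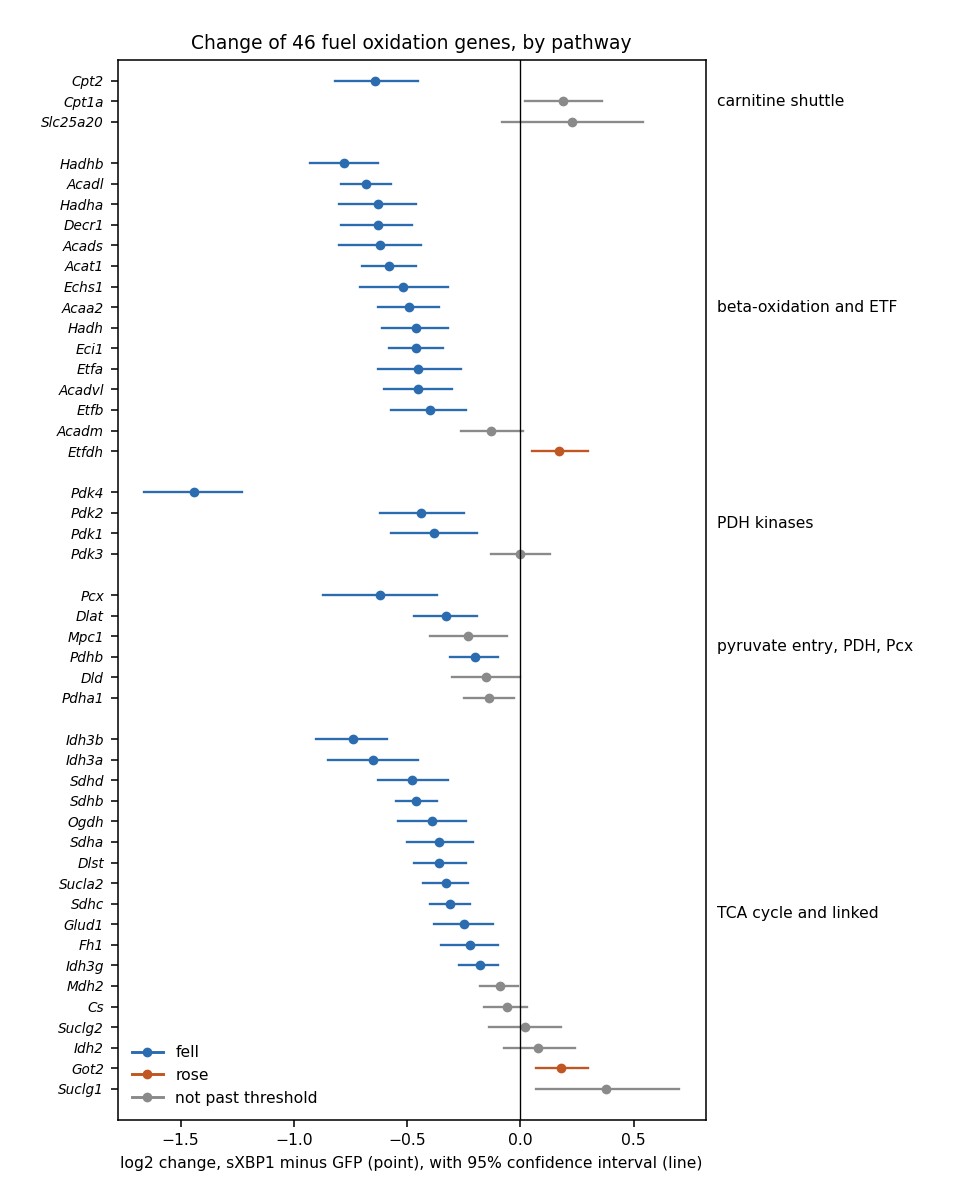
Log2 change of each of the 46 genes, sXBP1 minus GFP (points), with its 95% confidence interval (lines), in 5 pathway groups. The 32 genes that fell are blue, the 2 that rose orange and the 12 that did not pass grey; Pdk4 at -1.44 lies farthest from 0.

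Start regions of some of these genes are printed as examples, which do not stand for the other genes. They come from RefSeq (GRCm38.p6), run 5′ to 3′ on the gene's own strand and span 250 bases before to 50 bases after the annotated start. A window was found for 41 of the 46 measured genes. The starts of Hadha and Hadhb, which encode the alpha and beta subunits of the same beta-oxidation enzyme, lie on opposite strands of chromosome 5 with 272 bases between them. Their windows overlap over 228 bases, which are in capitals in the Hadha window. In the windows of Etfdh, which rose, Pdk4, which fell most, and Sdhd, capitals mark matches on either strand to 5 motifs. These were AGGTCA, a nuclear receptor half-site, TCAAGGTCA, bound by estrogen-related receptors and containing the first motif, the GC-rich motif of nuclear respiratory factor 1 (with any base at its sixth position), CCGGAAG of ETS factors and TGACGTGG, the core of the unfolded protein response element.
Hadha (chr5:30154931-30155230, minus strand): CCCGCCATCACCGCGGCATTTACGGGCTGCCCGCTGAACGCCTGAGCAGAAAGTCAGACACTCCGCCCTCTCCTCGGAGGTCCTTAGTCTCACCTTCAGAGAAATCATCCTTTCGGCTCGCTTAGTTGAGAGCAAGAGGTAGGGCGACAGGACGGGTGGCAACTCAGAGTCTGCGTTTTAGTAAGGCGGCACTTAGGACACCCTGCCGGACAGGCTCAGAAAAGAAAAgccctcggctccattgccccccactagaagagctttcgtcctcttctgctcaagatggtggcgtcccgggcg
Etfdh (chr3:79628718-79629017, minus strand): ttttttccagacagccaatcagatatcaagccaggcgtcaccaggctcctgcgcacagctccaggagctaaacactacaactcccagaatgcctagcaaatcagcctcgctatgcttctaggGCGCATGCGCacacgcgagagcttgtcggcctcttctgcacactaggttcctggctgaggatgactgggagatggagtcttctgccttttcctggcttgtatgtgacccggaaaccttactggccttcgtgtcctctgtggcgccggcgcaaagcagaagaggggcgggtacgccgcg
Pdk4 (chr6:5496229-5496528, minus strand): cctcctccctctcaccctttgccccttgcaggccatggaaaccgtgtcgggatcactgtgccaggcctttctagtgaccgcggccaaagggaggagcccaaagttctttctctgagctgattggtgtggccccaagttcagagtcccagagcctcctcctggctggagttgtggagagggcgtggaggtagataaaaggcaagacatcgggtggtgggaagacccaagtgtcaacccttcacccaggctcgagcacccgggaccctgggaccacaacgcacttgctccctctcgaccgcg
Sdhd (chr9:50603800-50604099, minus strand): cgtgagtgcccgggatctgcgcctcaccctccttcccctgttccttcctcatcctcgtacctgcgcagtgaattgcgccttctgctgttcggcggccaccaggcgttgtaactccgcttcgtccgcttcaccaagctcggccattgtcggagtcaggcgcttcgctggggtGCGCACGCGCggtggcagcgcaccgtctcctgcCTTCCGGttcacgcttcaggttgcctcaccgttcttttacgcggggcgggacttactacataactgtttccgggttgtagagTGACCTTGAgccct

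The Etfdh window held 1 match, to the nuclear respiratory factor 1 motif, beginning 128 bases before the start. The Sdhd window held that motif 79 bases before the start, the ETS motif 46 bases before it and TCAAGGTCA 36 bases after it, the last 2 read on the other strand. No match to these letters lay in the Pdk4 window. AGGTCA was found for 13 of the 41 genes (31.7%), against 18.1% of 27025 genes with a window. These 27025 were not limited to genes detected on the arrays, and a gene counted where any of its windows matched. The nuclear respiratory factor 1 motif was found for 6 genes (14.6%, against 5.19%) and the ETS motif for 9 (22%, against 9.93%). TCAAGGTCA was found for 1 gene, Sdhd (2.44%, against 0.466%), and TGACGTGG for 0 (against 0.714%). Among the 27 genes that fell and had a window, AGGTCA was found for 9, the ETS motif for 7, the nuclear respiratory factor 1 motif for 4 and TCAAGGTCA for 1. Among the 14 others the numbers were 4, 2, 2 and 0, in the same order.

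Of the carnitine shuttle, 1 of 3 measured genes fell, and it was the last enzyme of the route. Per-array values below are normalised signals, in the order of replicates 1 to 4, and compare arrays for 1 probe set, not genes with each other. Cpt2, the inner-membrane carnitine palmitoyltransferase that releases acyl-CoA into the matrix, had 1496, 1390, 1159 and 1131 in sXBP1 cells, against 1974, 2008, 2002 and 2035 in GFP cells. The groups were well apart, and the change was -0.64 ± 0.08 (limma adjusted p = 3.4e-04). The other Cpt2 probe set, dim at a mean of 69.5, changed by 0.07 (adjusted p = 0.852), and the mean of both did not pass (-0.28, adjusted p = 0.0543). Cpt1a, the outer-membrane transferase whose inhibition by malonyl-CoA sets the rate of the shuttle, had 896, 859, 875 and 717 in sXBP1 cells, against 775, 713, 685 and 746 in GFP cells. Only sXBP1 replicate 4 lay among the GFP values; the change of 0.19 ± 0.08 did not pass (adjusted p = 0.101) but did without that array (0.26, adjusted p = 0.0114) and after median centring (0.26, adjusted p = 0.0246). Slc25a20, the carnitine-acylcarnitine carrier of the inner membrane, had 673, 748, 1037 and 784 in sXBP1 cells, against 555, 671, 694 and 827 in GFP cells. These values overlapped, and the change of 0.23 ± 0.14 did not pass (adjusted p = 0.295), while its other probe set rose by 0.40 (adjusted p = 0.00286). The change of Cpt1a exceeded that of Cpt2 by 0.83 ± 0.08 and that of Slc25a20 exceeded it by 0.86 ± 0.24 (two-sided exact permutation p = 0.0286 each).

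Of beta-oxidation and its electron carriers 13 of 15 genes fell, 1 rose and 1 did not pass, with a median of -0.49. Acadl, the long-chain acyl-CoA dehydrogenase, had 1817, 1857, 1651 and 1651 in sXBP1 cells, against 2742, 2820, 2795 and 2846 in GFP cells. Hadhb, the thiolase-carrying beta subunit of the mitochondrial trifunctional protein, had 1964, 1902, 1673 and 1564 in sXBP1 cells, against 2947, 3104, 3066 and 3078 in GFP cells. Acat1, a mitochondrial acetoacetyl-CoA thiolase, had 2649, 2578, 2302 and 2332 in sXBP1 cells, against 3596, 3847, 3600 and 3714 in GFP cells. In none of these did the groups overlap. The changes were -0.68 ± 0.05 for Acadl (adjusted p = 8.7e-06), -0.78 ± 0.07 for Hadhb (adjusted p = 3.0e-05) and -0.58 ± 0.05 for Acat1 (adjusted p = 4.1e-05). The fall of Hadhb was found on both of its probe sets and that of Acat1 on all 3. That of Acadl was on 1 of 2; the other was dim, at a mean of 9.93, and changed by 0.23 (adjusted p = 0.532), and the mean of both did not pass (adjusted p = 0.221).

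Among the acyl-CoA dehydrogenases, which catalyse the first step and differ in the chain length they accept, 3 of 4 fell and the medium-chain enzyme did not pass. Acadl (-0.68), the short-chain Acads (-0.62 ± 0.08) and the very-long-chain Acadvl (-0.45 ± 0.07) fell, whereas Acadm changed by -0.13 ± 0.06 (adjusted p = 0.174). Acadm signals were 5613 to 6908 in sXBP1 cells and 6908 to 7142 in GFP cells. The change of Acadm differed from that of Acadl by 0.55 ± 0.06, of Acads by 0.49 ± 0.08 and of Acadvl by 0.32 ± 0.08 (two-sided exact permutation p = 0.0286 each). Acadvl also differed, from Acadl by 0.23 ± 0.04 and from Acads by 0.17 ± 0.03 (exact permutation p = 0.0286 each), while Acadl and Acads differed by 0.06 ± 0.06 (exact permutation p = 0.457).

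The later steps fell as well. Hadha, the hydratase and dehydrogenase subunit that partners Hadhb, changed by -0.63 ± 0.07 (adjusted p = 1.7e-04). Echs1, the short-chain enoyl-CoA hydratase, changed by -0.52 ± 0.09 and Hadh, the medium- and short-chain hydroxyacyl-CoA dehydrogenase, by -0.46 ± 0.06. The fall of Hadh was found on 2 of 3 probe sets. Acaa2, the thiolase for medium chains, changed by -0.49 ± 0.06, and its other probe sets fell too, at -0.68 and -0.45. The auxiliary enzymes for unsaturated chains also fell, Decr1, a dienoyl-CoA reductase, by 0.63 ± 0.07 and Eci1, an enoyl-CoA isomerase, by 0.46 ± 0.06. For these 6 genes all sXBP1 values lay below all GFP values.

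The electron transfer flavoprotein path was split. Etfa and Etfb, the subunits of the soluble carrier that takes electrons from the acyl-CoA dehydrogenases, fell by 0.45 ± 0.08 and 0.40 ± 0.07 (adjusted p = 0.00255 and 0.00262). Etfdh, the membrane oxidoreductase that passes these electrons to ubiquinone, had 2173, 2206, 2542 and 2273 in sXBP1 cells, against 2105, 2059, 1958 and 2010 in GFP cells. All sXBP1 values were above the GFP values, by a small margin, and Etfdh rose by 0.17 ± 0.06 (adjusted p = 0.0433). This call was lost in 11 of the 19 alternatives, among them leaving out any 1 of 6 arrays and using the values as deposited (0.13, adjusted p = 0.265). The change of Etfdh differed from that of Etfa by 0.62 ± 0.13 and from that of Etfb by 0.58 ± 0.13 (two-sided exact permutation p = 0.0286 each), while Etfa and Etfb differed by 0.04 ± 0.03 (exact permutation p = 0.2).

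**Figure D2:**
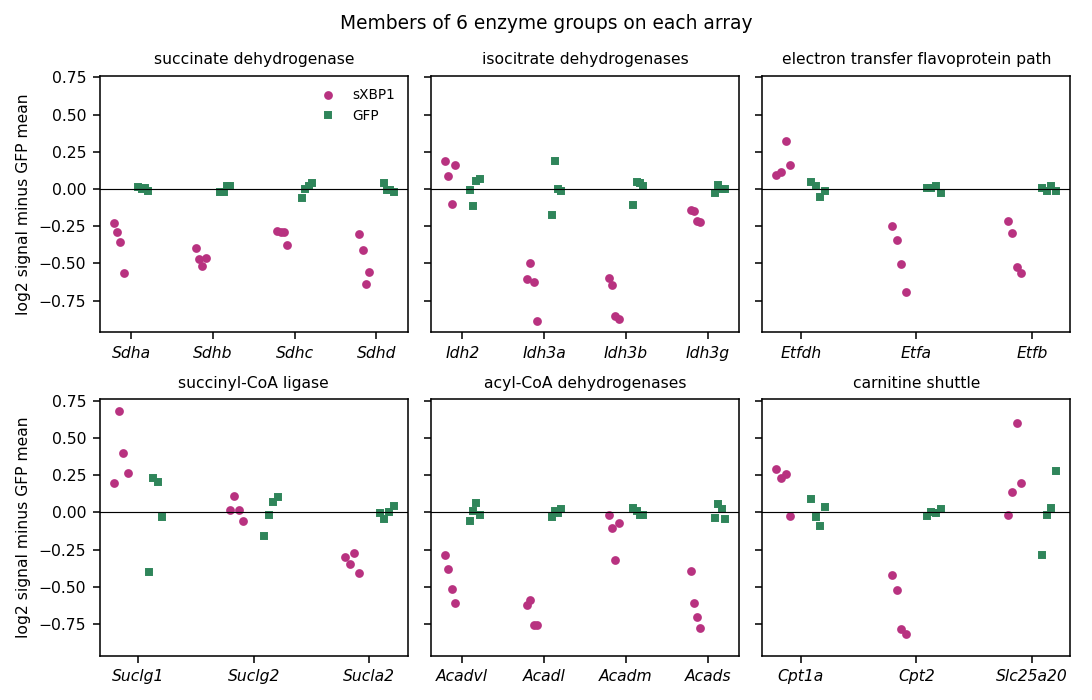
Log2 signal of each array minus the GFP mean of the gene, for sXBP1 arrays (circles, left of each pair) and GFP arrays (squares) in 6 enzyme groups. Acadm, Etfdh, Idh2, Suclg1, Suclg2, Cpt1a and Slc25a20 sit nearer to or above 0, while the other genes shown lie below 0 on all 4 sXBP1 arrays.

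The pyruvate dehydrogenase kinases phosphorylate and inactivate the pyruvate dehydrogenase complex, and 3 of the 4 fell. Pdk4, the kinase that fasting and fatty acids raise, had 390, 463, 338 and 369 in sXBP1 cells, against 1023, 1223, 1036 and 1052 in GFP cells. The highest sXBP1 value was below the lowest GFP value by a wide margin. The mean was 390 ± 53.5 in sXBP1 cells and 1084 ± 93.4 in GFP cells (SD, n = 4 each), a change of -1.44 ± 0.10 (adjusted p = 4.6e-06) and the lowest of all 46. It stayed between -1.52 and -1.30 in every alternative that was run.

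Pdk2, the most widely expressed kinase of the family, had 142, 156, 165 and 156 in sXBP1 cells, against 211, 217, 219 and 212 in GFP cells. Pdk1, which hypoxia induces, had 1730, 1988, 1548 and 1684 in sXBP1 cells, against 2433, 2443, 2214 and 1988 in GFP cells. The groups were apart for Pdk2 and met at 1988 for Pdk1. Pdk2 changed by -0.44 ± 0.08 (adjusted p = 0.00343) and Pdk1 by -0.38 ± 0.09 (adjusted p = 0.00798). Pdk1 fell on both probe sets, but not without sXBP1 replicates 3 and 4 (-0.28, adjusted p = 0.0747). Pdk3 had 1140, 1081, 1021 and 1090 in sXBP1 cells, against 1149, 995, 1067 and 1134 in GFP cells. These values were interleaved, and the change was 0.00 ± 0.06 with a 95% confidence interval of -0.13 to 0.13 (adjusted p = 0.983). Pdk4 changed by 1.06 ± 0.07 more than Pdk1, by 1.01 ± 0.12 more than Pdk2 and by 1.44 ± 0.13 more than Pdk3 (two-sided exact permutation p = 0.0286 each).

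**Figure D3:**
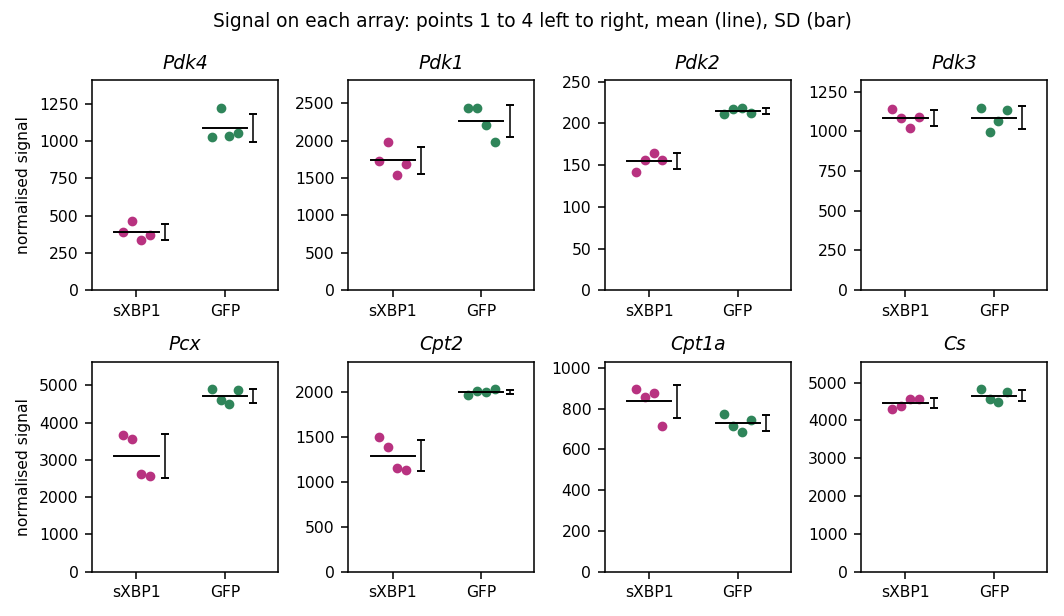
Normalised signal on each array for the pyruvate dehydrogenase kinases, Pcx, Cpt2, Cpt1a and Cs, with sXBP1 arrays left of GFP arrays; lines are means and bars SDs (n = 4). Pdk4 averaged 390 in sXBP1 and 1084 in GFP cells, and the groups overlap for Pdk1, Pdk3, Cpt1a and Cs.

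Of the 6 measured genes that bring pyruvate into the cycle, 3 fell and 3 did not pass. Pcx, pyruvate carboxylase, had 3663, 3572, 2634 and 2573 in sXBP1 cells, against 4903, 4622, 4504 and 4866 in GFP cells. All sXBP1 values were lower, those of replicates 3 and 4 most, and Pcx fell by 0.62 ± 0.11 (adjusted p = 0.00239). The array also carries 4 control probe sets along the Pcx transcript, outside the rule and measured on the same RNA. They changed by -0.65 ± 0.09 at the 3′ end, -0.55 ± 0.09 and -0.72 ± 0.10 in the middle and -0.70 ± 0.10 at the 5′ end (two-sided exact permutation p = 0.0286 each). The Pcx fall was found at every stretch of the messenger that these probe sets cover. The ratio of the 3′ to the 5′ Pcx signal was 8.1 ± 0.691 in sXBP1 cells and 7.28 ± 1.17 in GFP cells (SD, n = 4 each; two-sided exact permutation p = 0.2).

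In the pyruvate dehydrogenase complex the changes lay between -0.33 and -0.14. Dlat, its acetyltransferase core, had 1003, 938, 933 and 1054 in sXBP1 cells, against 1244, 1123, 1247 and 1339 in GFP cells. Pdhb, the beta subunit of its first enzyme, had 5524, 5176, 5706 and 5101 in sXBP1 cells, against 6438, 6101, 5934 and 6295 in GFP cells. The groups did not overlap in either. Dlat fell by 0.33 ± 0.06 (adjusted p = 0.00365), and its other probe sets fell too, at -0.42 and -0.41. Pdhb fell by 0.20 ± 0.05 on 1 of 2 probe sets (adjusted p = 0.011), and not after median centring (-0.08, adjusted p = 0.365). Pdha1, the alpha subunit that the kinases phosphorylate, changed by -0.14 ± 0.05 (adjusted p = 0.0759), Dld, the dehydrogenase shared with other complexes, by -0.15 ± 0.07 (adjusted p = 0.139) and Mpc1, a subunit of the pyruvate carrier, by -0.23 ± 0.08 (adjusted p = 0.0507). None of these 3 passed here; among the 19 alternatives Mpc1 passed in 5 and Pdha1 and Dld in 1 each.

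In the TCA cycle and its linked enzymes 12 of 18 genes fell, 1 rose and 5 did not pass, with a median of -0.28. Succinate dehydrogenase, which is also complex II of the respiratory chain, fell on the brightest probe set of all 4 subunits. Sdhb, its iron-sulfur subunit, had 3234, 3070, 2978 and 3094 in sXBP1 cells, against 4208, 4204, 4324 and 4334 in GFP cells. These groups were tight and far apart (-0.46 ± 0.04, adjusted p = 2.4e-05). The flavoprotein Sdha fell by 0.36 ± 0.06, and the membrane anchors Sdhc and Sdhd fell by 0.31 ± 0.04 and 0.48 ± 0.07, each anchor on 1 of 2 probe sets. The other Sdhc probe set, at a mean of 1735, changed by 0.07 (adjusted p = 0.888), and the mean of both did not pass (-0.12, adjusted p = 0.567). The other Sdhd probe set, at a mean of 176, changed by -0.56 (adjusted p = 0.0902). Among the 6 pairs of these subunits, the changes of Sdhb and Sdhc differed (0.15 ± 0.03, two-sided exact permutation p = 0.0286); the other 5 pairs differed by 0.01 to 0.17 (smallest exact permutation p = 0.0857).

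Of the 4 isocitrate dehydrogenase genes 3 fell, by unequal amounts. Idh3b, a regulatory subunit of the NAD-dependent enzyme, had 2492, 2415, 2087 and 2055 in sXBP1 cells, against 3513, 3913, 3890 and 3829 in GFP cells. The groups were far apart, and Idh3b fell by 0.74 ± 0.07 (adjusted p = 4.1e-05), with its other probe set at -0.66. Its catalytic partner Idh3a fell by 0.65 ± 0.09, and the other Idh3a probe sets fell further, at -0.95 and -0.97. Idh3g, another regulatory subunit, fell by 0.18 ± 0.04 on 1 of 2 probe sets, but not after median centring (-0.06, adjusted p = 0.388). Idh2, the NADP-dependent mitochondrial enzyme, changed by 0.08 ± 0.07 (adjusted p = 0.452). The change of Idh2 exceeded that of Idh3a by 0.74 ± 0.16, of Idh3b by 0.83 ± 0.09 and of Idh3g by 0.27 ± 0.08 (two-sided exact permutation p = 0.0286 each). Idh3g in turn differed from its own partners, with Idh3a lower by 0.47 ± 0.09 and Idh3b lower by 0.56 ± 0.06 (exact permutation p = 0.0286 each), while Idh3a and Idh3b differed by 0.09 ± 0.08 (exact permutation p = 0.171).

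The subunits of succinyl-CoA ligase did not change alike. Sucla2, the ATP-forming beta subunit, had 2294, 2221, 2332 and 2123 in sXBP1 cells, against 2813, 2740, 2828 and 2910 in GFP cells. It fell by 0.33 ± 0.04 with no overlap (adjusted p = 3.5e-04). Suclg1, the shared alpha subunit, changed by 0.38 ± 0.14 (adjusted p = 0.0788) with values of 3999 to 5590 in sXBP1 cells and 2630 to 4084 in GFP cells, and Suclg2, the GTP-forming beta subunit, by 0.02 ± 0.07 (adjusted p = 0.881). Suclg1 passed in 3 of the 19 alternatives, among them median centring (0.51, adjusted p = 0.0267) and a filter to probe sets present on at least 4 arrays (0.38, adjusted p = 0.0367). The change of Sucla2 was lower than that of Suclg1 by 0.72 ± 0.19 and than that of Suclg2 by 0.35 ± 0.06 (two-sided exact permutation p = 0.0286 each). Of the oxoglutarate dehydrogenase complex, Ogdh, its first enzyme, fell by 0.39 ± 0.07 and Dlst, its succinyltransferase, by 0.36 ± 0.05, on 1 of 2 probe sets.

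The remaining cycle genes had changes between -0.25 and 0.18. Cs, citrate synthase, which opens the cycle, had 4311, 4372, 4567 and 4560 in sXBP1 cells, against 4830, 4557, 4498 and 4740 in GFP cells. The groups overlapped and the change of -0.06 ± 0.04 did not pass (adjusted p = 0.325), while another of its 3 probe sets fell by 0.20 (adjusted p = 0.00803). Fh1, fumarase, fell by 0.22 ± 0.06, but not after median centring or without GFP replicate 4 (-0.12 and -0.20, adjusted p = 0.219 and 0.0531). Mdh2, mitochondrial malate dehydrogenase, changed by -0.09 ± 0.04 (adjusted p = 0.111). Glud1, glutamate dehydrogenase, fell by 0.25 ± 0.06, with its other probe set at -0.22, but not after median centring (-0.14, adjusted p = 0.112). Got2, the mitochondrial aspartate aminotransferase, had 3760, 3726, 4188 and 3659 in sXBP1 cells, against 3348, 3495, 3225 and 3417 in GFP cells. It rose by 0.18 ± 0.05 without overlap (adjusted p = 0.0245). The call was on 1 of 2 probe sets and was lost without GFP replicate 1, 3 or 4 (adjusted p = 0.0577, 0.0751 and 0.0527).

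Differences within enzyme groups were compared as within-array log2 ratios for 33 pairs in 7 groups, chosen with the results known. Of these, 21 had a two-sided exact permutation p of 0.0286, the smallest that 4 against 4 allows, and all 21 had a Benjamini-Hochberg adjusted p of 0.0449 over the 33 pairs.

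**Figure D4:**
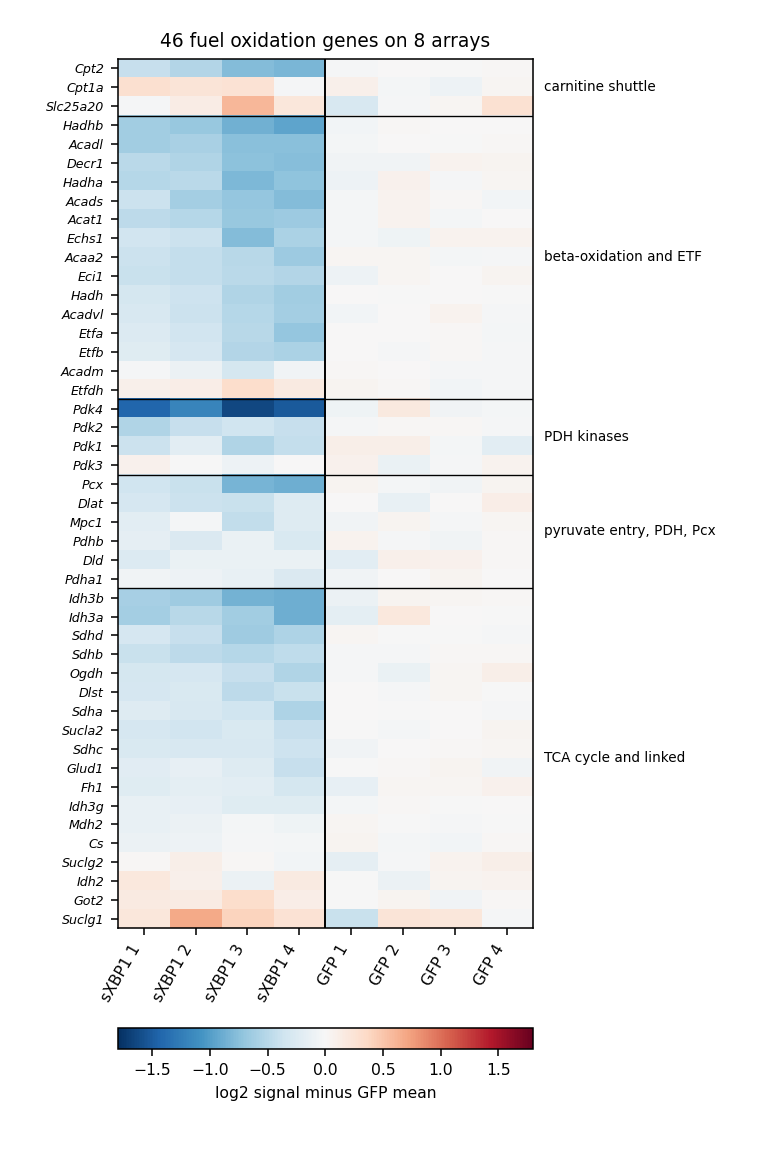
Log2 signal of each of the 46 genes on each array minus its GFP mean, with sXBP1 arrays left of GFP arrays and genes grouped by pathway. Blue is below and red above the GFP mean; the darkest cells are those of Pdk4, and of the 32 genes that fell 21 are lowest on sXBP1 replicate 4 and 10 on sXBP1 replicate 3.

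The sXBP1 arrays were not equal. Averaged over the 46 genes, the log2 signal lay 0.27, 0.27, 0.38 and 0.42 below the GFP mean on sXBP1 arrays 1 to 4, and the GFP arrays lay within 0.04 of it. Of the 32 genes that fell, 21 had their lowest sXBP1 value on array 4 and 10 on array 3. Without both of these arrays 31 genes fell, 30 of them among the 32, and 2 rose, with a median of -0.29. Pdk1, Fh1 and the riser Etfdh no longer passed there, while Cpt1a and Mdh2 did. Adipocyte markers were also lowest on these arrays: the mean of 16 measured markers lay at -0.38, -0.45, -0.74 and -0.90 on sXBP1 arrays 1 to 4. Of these markers 12 fell (75%, against 14.4% of all genes) and 0 rose, with a median of -0.60. Their summed signal was 61841 to 75725 in sXBP1 cells and 84456 to 87247 in GFP cells. All 16 were called present on at least 1 array. Their part in the lower oxidation genes was not tested, and in such bulk samples fewer cells of a type and less RNA per cell cannot be told apart.

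Other marker lists are given whole, whether or not they moved with the groups. Of all genes 14.4% fell and 12.9% rose. Of 14 fibroblast and preadipocyte markers 6 fell and 1 rose (median -0.06), with a summed signal of 102940 to 109204 in sXBP1 cells and 113891 to 116427 in GFP cells; Tagln was called present on no array. Among 12 genes that mark macrophages and leukocytes 4 were higher past the threshold and 0 lower, with a summed signal of 2258 to 3961 in sXBP1 cells and 807 to 834 in GFP cells. The 4 were Cd68, Cd14, Lyz2 and Csf1r, while Ptprc, Itgam, Fcgr3, C1qa and C1qb were called present on no array. Of 7 brown and beige adipocyte markers 4 fell and 0 rose. Ucp1 and Ppargc1a were called present on no array, and Ppargc1a is 1 of the 4. Of 8 muscle markers 1 fell (Mb), a share of 12.5% that is below that of all genes. Of these 8, 5 were called present on no array or not listed with a call. The part of these in the result was not tested. The 3′ to 5′ ratio of Gapdh, a measure of RNA integrity, was 0.783 ± 0.0129 in sXBP1 cells and 0.816 ± 0.00451 in GFP cells (SD, n = 4 each, two-sided exact permutation p = 0.0286). That of Actb was 1.38 ± 0.0474 in sXBP1 and 1.42 ± 0.0191 in GFP cells (exact permutation p = 0.143). For Tfrc it was 2.83 ± 0.581 in sXBP1 and 4.78 ± 2.39 in GFP cells (exact permutation p = 0.0857). The part of RNA integrity was not tested either. All 8 genes of a list of sXBP1 targets rose (median 0.87), where 12.9% of all genes did. That list was chosen with earlier results of these data known, so its rise is no independent check. None of the 4 Xbp1 probe sets passed (-0.02 to 0.08). Whether those 4 can detect the virus's own transcript was not analysed here.

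**Figure D5:**
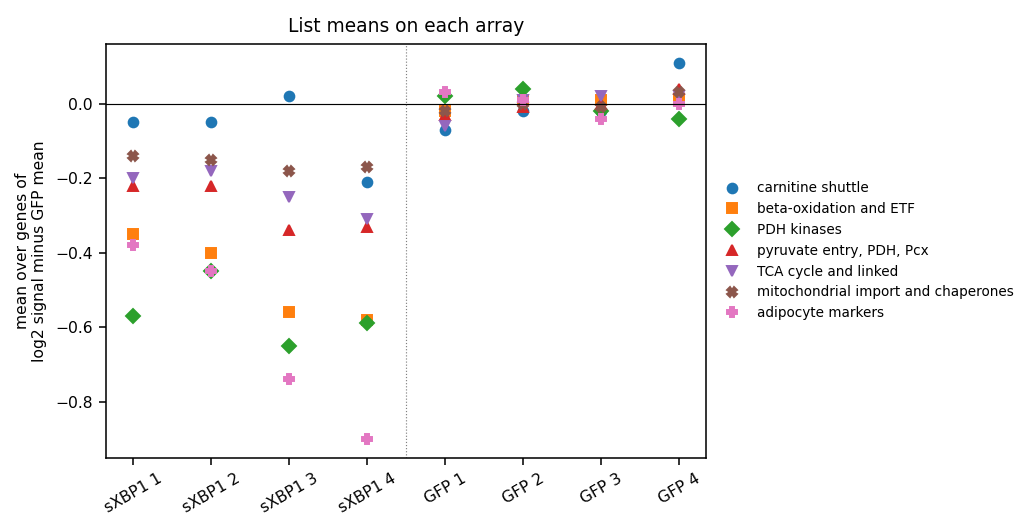
Mean over genes of the log2 signal minus the GFP mean, on each sXBP1 array (left) and GFP array (right), for the 5 pathway groups, mitochondrial import and chaperone genes and adipocyte markers. On the sXBP1 arrays beta-oxidation lies at -0.35 to -0.58 and adipocyte markers at -0.38 to -0.90, while import and chaperone genes stay at -0.14 to -0.18.

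A list of other mitochondrial genes had a smaller median change. Of 20 genes for mitochondrial import, the outer membrane and chaperones 10 fell (50%) and 1 rose, with a median of -0.18. The shares that fell were 14.4% of all genes and 22.6% of those present on all 8 arrays. The difference from the fuel oxidation genes was not tested. No list of respiratory chain or mitochondrial ribosome genes was compared here. Mfn2, a mitochondrial fusion protein, fell by 0.56 ± 0.06 on 1 of 2 probe sets and Lonp1, a matrix protease, by 0.45 ± 0.05. Clpp, another matrix protease, rose by 0.24 ± 0.06, also on 1 of 2. The mean of this list was nearly level over the sXBP1 arrays, at -0.14 to -0.18.

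Of 55 other measured genes of the same pathways 22 fell (40%, against 14.4% of all genes), 2 rose and 31 did not pass. Their median change was -0.21. Among 14 further genes of fatty acid activation and oxidation 6 fell and 1 rose. Acad9, an acyl-CoA dehydrogenase also needed to assemble complex I, fell by 0.69 ± 0.08 and Ech1, a dienoyl-CoA isomerase, by 0.42 ± 0.07, whereas Acsl5, an acyl-CoA synthetase, rose by 0.30 ± 0.06. Of 2 measured ketone body genes, Oxct1, which activates acetoacetate for oxidation, fell by 0.43 ± 0.06, and all 4 of its probe sets passed as lower. Bdh1, with signals of 0.912 to 13.3 over all arrays, did not pass (adjusted p = 0.658). Of 3 lipoylation genes, Lias, lipoic acid synthase, whose product is the cofactor of the Dlat and Dlst proteins, fell by 0.55 ± 0.10, and Lipt2 changed by 0.27 ± 0.11 (adjusted p = 0.101).

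Metabolite carriers exchange the intermediates of the cycle with the cytosol, where related enzymes use them. Of 9 other cycle and carrier genes 3 fell and 0 rose, among them Slc25a11, the oxoglutarate carrier, by 0.48 ± 0.07 and Slc25a22, a glutamate carrier, by 0.54 ± 0.09. Of 9 cytosolic counterparts 4 fell and 0 rose. Ldhb, the lactate dehydrogenase subunit of oxidative tissues, had 1590 ± 198 in sXBP1 cells and 2823 ± 73.1 in GFP cells (SD, n = 4 each). It fell by 0.83 ± 0.08, and all 4 of its probe sets passed as lower. Aco1, cytosolic aconitase, fell by 0.65 ± 0.07, and both of its probe sets passed as lower.

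Among 18 transcriptional regulators of oxidation 7 fell and 1 rose. Ppargc1b, which encodes the coactivator PGC-1beta, had 153, 202, 153 and 121 in sXBP1 cells, against 398, 429, 438 and 384 in GFP cells. It was detected on 1 of the 4 sXBP1 arrays, against all 4 GFP arrays, and fell by 1.32 ± 0.13 (adjusted p = 5.2e-05). Ppargc1a, which encodes PGC-1alpha, is counted among the 7 but was called present on no array, so no fold is given. Nrip1, a corepressor of nuclear receptors, fell by 0.83 ± 0.08, and both of its probe sets passed as lower. Pprc1, a related coactivator, rose by 0.39 ± 0.11. Across the 46 oxidation genes, which share the same arrays and are not independent, the Spearman rho between mean level and change was 0.09, given as a description.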

How the data were processed

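Total RNA from 4 sXBP1 and 4 GFP samples was hybridised to 1 Affymetrix array each, with group and replicate number read from each title. The authors deposited MAS5 signal intensity per probe set on a linear scale, per the submitters' processing notes. The MAS5 version and scaling target are unknown here. The authors' deposited comparison table holds the same signals for 18394 probe sets, detection calls, a fold and a score for each. Of 22690 probe sets 64 controls were left out and 22626 tested; 20380 carried 1 gene symbol of the platform annotation, 691 several and 1555 none. Signals were taken as log2(signal + 16) and quantile normalised, since 2% trimmed means ranged from 492 to 574. Printed signals are these values returned to the linear scale. Changes were fitted in R 4.3.3 with limma 3.58.1 (lmFit, eBayes with a trend, two-sided, Benjamini-Hochberg over all tested probe sets, threshold 0.05), tested on simulated data. The log2 scale with a pseudocount understates changes of dim genes. Exact permutation tests ran over the 8 samples. The number of arrays limits the precision. Array correlations were 0.989 to 0.994 within sXBP1, 0.992 to 0.995 within GFP and 0.962 to 0.978 between groups, over 12571 probe sets present on all arrays. Every member is named; array values are given for the 3 of smallest p in each group, all that rose, and Pdk1 to Pdk4, Cpt1a, Pcx and Cs, and of the other pathway, regulator and mitochondrial lists the 2 of smallest p are named. The risers Acsl5, Clpp and Pprc1, the macrophage markers, Ppargc1a and Acadm, Suclg1 and control Pcx signals were chosen after their values were seen. The members, lists and pairs were chosen with earlier results of these data known. Alternatives were the scaling, pseudocount, a filter on calls, the probe set, the variance trend, the replicate number as a block, left-out samples and an unequal-variance test of linear signals. Figures were drawn with matplotlib 3.10.9.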

Additional observations from a re-analysis of the deposited data

Results flagged for a closer look

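In 3 of the 92 groups of 4 values examined (46 genes, 2 groups of samples), 1 sample lay far from the other 3 on the log2 scale; chance gives about 5% of groups. Dld stood at 2381 on sXBP1 replicate 1, against 2588 to 2596 on the other sXBP1 arrays. Sdhc stood at 3292 on sXBP1 replicate 4, against 3498 to 3526 on the others. Pdk4 stood at 1223 on GFP replicate 2, against 1023 to 1052 on the other GFP arrays, and all of these are above its sXBP1 values.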

How the results depend on the processing

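Results were recomputed under 19 alternatives, 1 of them (leaving out sXBP1 replicates 3 and 4 together) chosen after seeing the data. Of the 32 genes that fell, 19 did so under every alternative, and of the 2 that rose 0 did. The number that fell was 24 to 34, lowest with the unequal-variance test of linear signals, where 943 genes were lower and 348 higher among all genes. The number that rose was 0 with values as deposited (1012 higher genes among all), 4 after median centring, 0 without a variance trend, 0 with the unequal-variance test and 0 to 2 when 1 sample was left out. The median was -0.27 after median centring and -0.29 without sXBP1 replicates 3 and 4, and -0.41 to -0.35 when 1 sample was left out; the cause was not tested. Median centring shifted the median of all genes to 0.07, and the deposited scaling to -0.07. Reversed values were those of Suclg2 at -0.08 as deposited, -0.01 without sXBP1 replicate 2, -0.03 without GFP replicate 1 and -0.09 with the unequal-variance test. Pdk3, at 0.00 in the report, was at 0.09 after median centring, between -0.04 and 0.03 when 1 sample was left out, 0.02 without sXBP1 replicate 3, 0.03 without GFP replicate 1, 0.02 without GFP replicate 4 and 0.03 without sXBP1 replicates 3 and 4. Cs was at 0.06 and Mdh2 at 0.02 after median centring. With the second brightest probe set 25 of the 32 genes still fell, where genes with 1 probe set kept it. Pdhb, Idh3g, Dlst and Sdhd no longer passed there. Values were reversed at 0.07 for Cpt2, 0.23 for Acadl, 0.11 for Pdha1 and 0.07 for Sdhc. Of the 46 genes 24 had several probe sets, and in 13 of these all shared 1 call. Their 31 other probe sets fell in 16 cases, rose in 1 and did not pass in 14. With the replicate number as a block 33 genes fell and 1 rose, which was Suclg1 (0.38, adjusted p = 0.0068). Etfdh and Got2 did not pass there (adjusted p = 0.0891 and 0.0614). Samples of the same number correlated at 0.12, 0.04, -0.06 and 0.09 in their deviations from the group means. For 3 of the 4 sXBP1 samples the best match was the GFP sample of the same number. Whether the numbers pair the samples is not known, and the main fit did not use them. In the authors' deposited table the direction was the same for all 34 called genes, from the same arrays.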
